A study of Homo sapiens with 4 samples.

Results

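Transcripts of the Wnt pathway were followed in SUM159 cells, a long-established line from a human breast cancer with mesenchymal features and without hormone receptors. The cells carried pTRIPZ-mir-100, a lentiviral construct that makes the microRNA miR-100 when doxycycline (DOX) is added. ALDH-positive and ALDH-negative cells were parted by flow sorting on aldehyde dehydrogenase, an enzyme activity used to enrich stem-like breast cancer cells, and each fraction was grown in suspension with or without DOX. The 4 groups were ALDH-positive DOX, ALDH-positive control, ALDH-negative DOX and ALDH-negative control, each with 1 Affymetrix array, and the control cells carried the construct too. The titles and the treatment protocol name doxycycline for 10 h, while the sample descriptions name doxorubicin, another drug, and 13 h, so DOX is used here as the name of the treatment only. The stated aim was to find targets of miR-100 in stem-like cells and in those that are not. Cells without the construct that received DOX were not analysed here, so an effect of the drug and an effect of miR-100 cannot be told apart.

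The genes described are 42 named Wnt ligands, receptors and regulators. A gene was taken where at least 1 probe set was annotated to it alone, which held for 38 of the 42 genes, with 100 probe sets, out of 19775 genes with 41097 probe sets in all. WNT3 and FZD8 had only probe sets that are listed with a neighbouring gene as well, and TCF7 and PORCN were not analysed here. Where a gene had several probe sets, the brightest on average stood for it, and the values are log2 levels as deposited. A log2 level of 6, near the median of each array, was used as the mark below which a value was treated as background. By that mark 32 of the 38 genes were measured, and WNT10A, WNT11, FZD2, ROR2, TCF7L1 and SFRP1 stayed below it on all 4 arrays. Levels of different genes are not compared, since each probe set has its own response.

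In the Wnt pathway, secreted ligands are lipid-modified by PORCN, carried to the cell surface by WLS and bound by Frizzled receptors together with the co-receptors LRP5 and LRP6. Dishevelled proteins then restrain the destruction complex of AXIN, APC and GSK3B, so that β-catenin (CTNNB1) accumulates and works with TCF and LEF factors at target genes, while ligands such as WNT5A also act through ROR and RYK receptors without β-catenin. The pathway is known in the mammary gland for its part in stem and progenitor cell maintenance.

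The sequence of the induced microRNA and the promoters of 3 of the members described below are shown here, from RefSeq on GRCh38.p14. The mature miR-100-5p lies at chr11:122152275-122152296 on the minus strand, and its seed, bases 2 to 8, is in capitals.
hsa-miR-100-5p: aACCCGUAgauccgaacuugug
The promoters run from 250 bases before to 50 bases after the gene's start and were searched for the TCF/LEF letters CTTTGAT and CTTTGAA on both strands, with matches in capitals. The window of DKK1 lies at chr10:52314031-52314330 on the plus strand, that of FZD5 at chr2:207769857-207770156 on the minus strand and that of LEF1 at chr4:108166252-108166551 on the minus strand.
DKK1: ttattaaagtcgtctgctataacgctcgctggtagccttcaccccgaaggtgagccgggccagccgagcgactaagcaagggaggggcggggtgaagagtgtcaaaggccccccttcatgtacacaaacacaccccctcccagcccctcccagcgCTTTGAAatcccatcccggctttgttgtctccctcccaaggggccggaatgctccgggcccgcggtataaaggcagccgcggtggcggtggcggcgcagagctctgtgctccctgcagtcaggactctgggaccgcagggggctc
FZD5: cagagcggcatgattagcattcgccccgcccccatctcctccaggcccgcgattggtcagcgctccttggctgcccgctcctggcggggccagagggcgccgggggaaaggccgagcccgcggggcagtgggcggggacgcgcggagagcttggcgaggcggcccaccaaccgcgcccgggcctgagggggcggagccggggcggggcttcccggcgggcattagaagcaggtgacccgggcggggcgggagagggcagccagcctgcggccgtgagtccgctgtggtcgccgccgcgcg
LEF1: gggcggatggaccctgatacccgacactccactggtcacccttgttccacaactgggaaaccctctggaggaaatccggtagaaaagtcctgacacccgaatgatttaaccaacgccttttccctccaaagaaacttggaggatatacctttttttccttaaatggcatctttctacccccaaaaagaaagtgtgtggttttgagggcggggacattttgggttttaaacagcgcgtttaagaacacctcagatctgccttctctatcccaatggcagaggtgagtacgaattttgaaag
The promoter of DKK1 held a match, CTTTGAA, which begins 95 bases before the gene's start. The windows of FZD5 and LEF1 held no match, and the 3 windows differed in base composition, with G or C at 63.7% of the bases of DKK1, 77% of FZD5 and 47% of LEF1. Of the 42 genes, 30 had a promoter entry, and 1 of these 30, DKK1, held the letters, against 6.98% of 27305 promoters of all genes. DKK3 and FZD6 had no promoter entry. A match describes these letters only.

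The labelled cell type was checked first. All 6 markers listed as high in SUM159 (VIM, ZEB1, CDH2, FN1, SPARC and CD44) lay above a level of 6 on all 4 arrays, and of 5 listed as low, ESR1, PGR, EPCAM and CDH1 lay below 6 on all arrays while ERBB2 was at 9.22 to 10.17. ALDH1A1, an enzyme of the sorted activity, was at 10.66 in ALDH-positive DOX and 11.77 in ALDH-positive control cells, against 10.86 in ALDH-negative DOX and 10.72 in ALDH-negative control cells, with the highest value on the ALDH-positive control array. ALDH1A3 was at 6.64 in ALDH-positive DOX and 6.48 in ALDH-positive control cells, against 7.79 in ALDH-negative DOX and 5.86 in ALDH-negative control cells, with the highest value on the ALDH-negative DOX array, and ALDH2 and ALDH3A1 lay below 6 on all arrays. Of 8 measured markers of immune, endothelial and erythroid cells, 5 lay below 6 on all arrays (PTPRC, CD3D, CD14, VWF and CDH5), while LAPTM5, PECAM1 and HBB differed between the fractions. LAPTM5 was at 11.36 and 11.13 in ALDH-positive DOX and control cells, against 9.47 and 9.36 in ALDH-negative DOX and control cells, and HBB was at 6.44 and 6.98 against 5.62 and 5.77 in the same order. PECAM1 was at 7.56 and 5.96 in ALDH-positive DOX and control cells, against 9.62 and 9.77 in ALDH-negative DOX and control cells. Control probe sets differed unevenly in the ALDH-positive pair. Those for the 3′ and 5′ ends of the small-subunit ribosomal RNA were lower on the DOX array, by differences of -1.90 and -1.94. The ALDH-negative pair had 0.45 and 0.20. In the ALDH-positive pair the middle probe set of that RNA differed by -0.30, those of actin by -0.67 to -0.07 and those of GAPDH by 0.16 to 0.39. The 3′ probe set of the ribosomal RNA also differed by 1.06 between the fractions in control cells. The part of these values in the differences below was not tested.

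**Figure D1:**
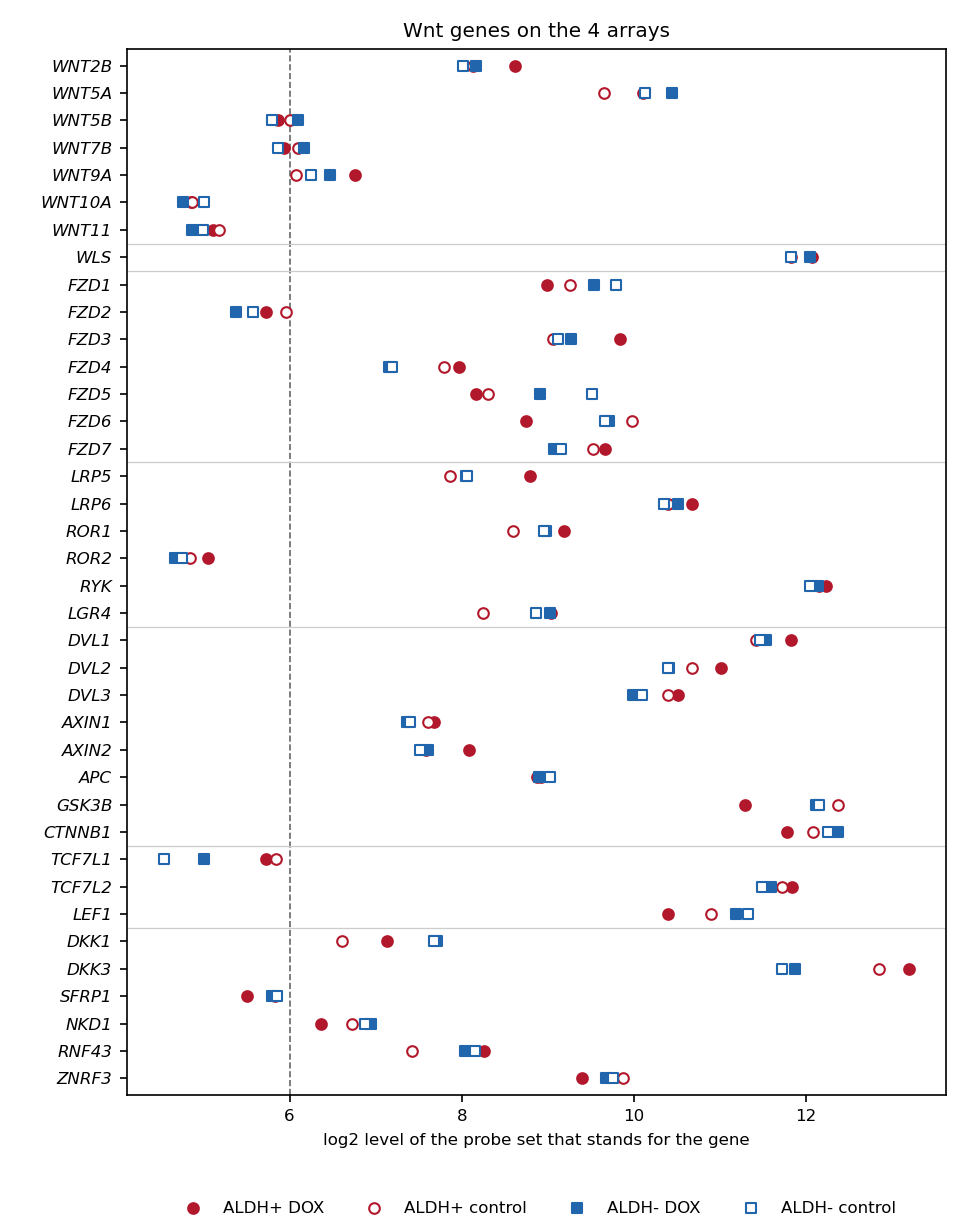
Log2 level (x axis) of the probe set that stands for each of 38 Wnt genes (y axis, in the order of ligands, WLS, Frizzled receptors, co-receptors, transducers, transcription factors and antagonists, parted by lines) on the 4 arrays. Each point is 1 array, circles are ALDH-positive and squares ALDH-negative, filled for DOX and open for control, and the dashed line marks a level of 6. The ALDH-positive circles of DKK3 lie to the right of both squares and those of FZD5 and LEF1 to the left.

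The ALDH-positive and ALDH-negative fractions differed in DKK3, FZD5 and LEF1. DKK3, a secreted member of the Dickkopf family whose effect on Wnt signalling differs between cell types, was higher in ALDH-positive cells, and FZD5, a receptor for WNT5A and other ligands, and LEF1, a DNA-binding partner of β-catenin, were lower. The test was an additive model fitted with limma to all 4 arrays and all 12365 genes at a level of 6 on at least 1 array, in which the DOX and control pairs served as repeats of the ALDH contrast. Of 32 Wnt genes tested, 1 was higher and 2 were lower at a Benjamini-Hochberg adjusted p under 0.05, while of all genes 13.5% were higher and 9.58% lower. Their median ALDH difference was 0.01, against 0.03 over all genes. The residual of this model is the gap between the ALDH differences of the DOX and the control pair, with 1 residual degree of freedom. Its size is moderated by the gaps of the other genes. The labels do not say that the arrays came from separate cultures or sorts. The p-values and SE therefore measure no spread between repeat arrays, and the gap may be technical or a DOX effect that differs between the fractions. The share of all genes whose fractions do not overlap is not given here, so an order of the arrays named below adds nothing to the test.

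DKK3 was at 13.19 in ALDH-positive DOX and 12.85 in ALDH-positive control cells, against 11.87 in ALDH-negative DOX and 11.72 in ALDH-negative control cells. Both ALDH-positive arrays lay above both ALDH-negative arrays. The mean difference was 1.23 ± 0.11 (SE, limma adjusted p = 2.42e-05), and it passed in all 9 alternatives run, with values between 4.82e-08 and 0.0212. The other probe sets of DKK3 that reached a level of 6 went the same way, with ALDH differences of 1.31, 1.64 and 1.19 in DOX-treated and 1.14, 1.32 and 2.87 in control cells.

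FZD5 was at 8.17 in ALDH-positive DOX and 8.31 in ALDH-positive control cells, against 8.91 in ALDH-negative DOX and 9.51 in ALDH-negative control cells. It was lower on both ALDH-positive arrays, with a mean difference of -0.97 ± 0.27 (SE, limma adjusted p = 0.0220). Its other probe set lay under 6 on all arrays, and with the mean of the probe sets the value was -0.48 (limma adjusted p = 0.123, against 0.0127 to 0.123 over 8 alternatives).

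LEF1 was at 10.40 in ALDH-positive DOX and 10.89 in ALDH-positive control cells, against 11.18 in ALDH-negative DOX and 11.33 in ALDH-negative control cells. Both ALDH-positive arrays lay below both ALDH-negative arrays, with a mean difference of -0.61 ± 0.19 (SE, limma adjusted p = 0.0387). Over 8 alternatives its limma adjusted p ran between 0.0243 and 0.175, and it was under the threshold in 4 of them. In a further fit over all probe sets, CTNNB1 and DKK3 were the only Wnt genes that passed, so that LEF1 and FZD5 did not. The LEF1 probe set 210948_s_at gave ALDH differences of -1.24 in DOX-treated and -0.14 in control cells, the first -0.75 with levels under 6 set to 6.

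DKK1, a secreted inhibitor that binds LRP5 and LRP6 and is itself a known β-catenin target, was at 7.13 in ALDH-positive DOX and 6.61 in ALDH-positive control cells, against 7.71 in ALDH-negative DOX and 7.68 in ALDH-negative control cells. The mean difference of -0.83 ± 0.29 missed the threshold (SE, limma adjusted p = 0.0538) and passed in 4 of 9 alternatives, with values between 0.0346 and 0.118. DKK1 is the member whose promoter holds the TCF/LEF letters shown above, which 6.98% of promoters of all genes hold. A link of the letters to this difference was not tested. CTNNB1 was at 11.78 in ALDH-positive DOX and 12.08 in ALDH-positive control cells, against 12.37 in ALDH-negative DOX and 12.26 in ALDH-negative control cells, and did not pass either, with -0.39 ± 0.14 (SE, limma adjusted p = 0.0614).

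**Figure D2:**
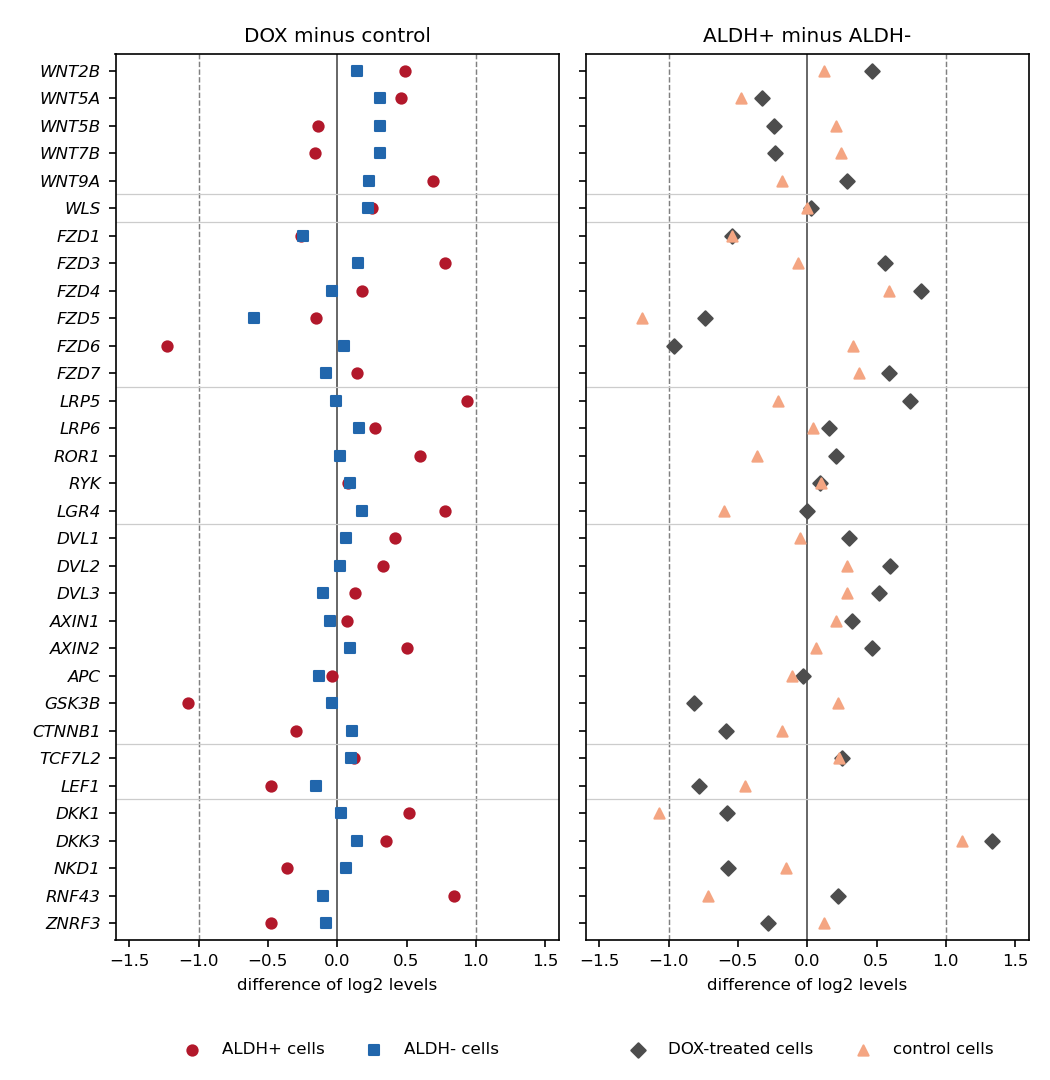
Differences of log2 levels (x axis) for the 32 Wnt genes at a level of 6 on at least 1 array (y axis). Left, DOX minus control in ALDH-positive (circles) and ALDH-negative cells (squares). Right, ALDH-positive minus ALDH-negative in DOX-treated (diamonds) and control cells (triangles). Each point is the difference of 2 arrays and dashed lines mark 2-fold. The squares lie between -0.60 and 0.31, the circles between -1.23 and 0.94, and DKK3 alone lies past 2-fold in both ALDH comparisons.

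Between 2 arrays, where no p-value can be had, a gene was called at a difference of 1 or more on the log2 scale (2-fold) with a level of 6 on at least 1 of the 2 arrays. In DOX-treated cells 1 of 32 Wnt genes was called higher in the ALDH-positive fraction, DKK3 (1.33), and 0 lower, against 11.4% and 5.32% of all genes. In control cells 1 of 31 was called higher, DKK3 (1.12), and 2 lower, FZD5 (-1.19) and DKK1 (-1.07), against 6.09% and 4.4% of all genes. FZD6 in DOX-treated cells, at -0.96, lay just short of the call.

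Among the other Frizzled receptors, FZD4, a receptor for Wnt ligands and norrin, was at 7.97 in ALDH-positive DOX and 7.79 in ALDH-positive control cells, against 7.15 in ALDH-negative DOX and 7.19 in ALDH-negative control cells. FZD1 was at 8.99 and 9.26 in ALDH-positive DOX and control cells, against 9.54 and 9.79 in ALDH-negative DOX and control cells. FZD4 was thus higher and FZD1 lower in ALDH-positive cells, but the share of all genes that part in this way is not given here. Neither passed the test, with a mean ALDH difference of 0.71 ± 0.28 for FZD4 (SE, limma adjusted p = 0.0855) and -0.54 ± 0.25 for FZD1 (SE, limma adjusted p = 0.139). FZD7 had 0.48 ± 0.25 (SE, limma adjusted p = 0.194), but its second probe set gave -0.41 in DOX-treated and 0.03 in control cells.

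DVL2 and DVL3, which pass the signal from Frizzled receptors to the destruction complex, and the scaffold AXIN1 had positive mean ALDH differences without passing. DVL2 was at 11.01 in ALDH-positive DOX and 10.68 in ALDH-positive control cells, against 10.41 and 10.39 in ALDH-negative DOX and control cells, a mean of 0.45 ± 0.21 (SE, limma adjusted p = 0.147). DVL3 had 0.41 ± 0.22 (SE, limma adjusted p = 0.213) and AXIN1 0.27 ± 0.28 (SE, limma adjusted p = 0.531). The second probe set of DVL3 went the other way, with -0.17 in DOX-treated and -0.30 in control cells. TCF7L1, a T cell factor that mostly represses, was at 5.73 and 5.84 in ALDH-positive DOX and control cells, against 5.01 and 4.54 in ALDH-negative DOX and control cells, all below the background mark, so that no difference is given for it.

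DOX went with lower FZD6 and GSK3B levels in ALDH-positive cells and with no called Wnt gene in ALDH-negative cells. FZD6, a Frizzled receptor known for planar polarity, and GSK3B, the kinase that marks β-catenin for destruction, were the 2 genes called lower of 31 compared in the ALDH-positive pair, and 0 were called higher. Of all genes in that pair 2.3% were called lower and 3.47% higher. In the ALDH-negative pair 0 of 32 Wnt genes were called in either direction, against 0.271% of all genes higher and 0.0508% lower. The median difference of the Wnt genes was 0.18 in the ALDH-positive pair and 0.06 in the ALDH-negative pair, against medians over all genes of 0.12 and 0.00.

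FZD6 was at 8.75 in ALDH-positive DOX and 9.98 in ALDH-positive control cells, which gives -1.23. In the ALDH-negative fraction it was at 9.71 with DOX and 9.66 in the control, which gives 0.05. The ALDH-positive DOX array was the low one of the 4, and FZD6 has 1 probe set here, so that no other probe set could be set beside it.

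GSK3B was at 11.29 in ALDH-positive DOX and 12.37 in ALDH-positive control cells, which gives -1.08. In the ALDH-negative fraction it was at 12.11 with DOX and 12.15 in the control, which gives -0.04. Its other 3 probe sets that reached 6 on at least 1 array gave -0.65, 0.28 and -1.35 in the ALDH-positive pair, the last with 5.83 in DOX cells and a value of -1.19 with levels under 6 set to 6, so that they did not go the same way, and the mean of its probe sets was at -0.59, short of 2-fold.

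The DOX differences of the fractions were set against each other by subtracting the ALDH-negative from the ALDH-positive one. FZD6 (-1.29) and GSK3B (-1.04) were the 2 Wnt genes of 32 past 2-fold on the low side, with 0 on the high side, against 2.4% and 3.78% of all genes. With 1 array a group this difference was not tested.

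The additive limma model, which takes the mean of both DOX differences and counts any difference between the fractions as error, called 0 of 32 Wnt genes for DOX at an adjusted p under 0.05. Of all genes it called 0.00809% higher and 0% lower. At an unadjusted p under 0.05 it held 1 of 32 Wnt genes, against 652 of 12365 genes in all. That gene was GSK3B, with a mean difference of -0.56 ± 0.20 (SE, limma adjusted p = 0.855). The model without the trend of the variance and the robust model held 0 Wnt genes each, against 424 and 538 of all genes. The lowest limma adjusted p of any Wnt gene was 0.855, 0.904 without the trend and 0.922 with robust estimation.

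By role, the differences that DOX went with in ALDH-positive cells were small and uneven. The 4 ligands compared lay between -0.16 and 0.69, with WNT9A at 0.69, WNT2B at 0.49 and WNT5A, a ligand of the β-catenin-independent branch, at 0.46. WNT9A lay near the background mark, at 6.76 in ALDH-positive DOX and 6.07 in ALDH-positive control cells. The WNT2B probe set 238512_at went the other way in the ALDH-positive pair (-0.39). Between the fractions in control cells it gave 1.49, or 0.65 with levels under 6 set to 6. WNT5A was at 10.11 in ALDH-positive DOX and 9.65 in ALDH-positive control cells, and at 10.44 in ALDH-negative DOX and 10.13 in ALDH-negative control cells, so that it was high with DOX in both fractions, with a mean of 0.39 ± 0.23 that did not pass (SE, limma adjusted p = 0.919). WNT5B and WNT7B lay at the background mark, between 5.79 and 6.17 on all arrays. WLS, the ligand carrier, differed by 0.25 in the ALDH-positive pair and 0.22 in the ALDH-negative pair.

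Among the Frizzled receptors other than FZD6, FZD3 differed by 0.78 in the ALDH-positive pair and 0.15 in the ALDH-negative pair. The other 3 probe sets of FZD3 gave 0.09, -0.37 and -0.16 in the ALDH-positive pair. The remaining receptors differed by -0.26 to 0.18 in the ALDH-positive pair. FZD5 had -0.15 in the ALDH-positive pair and -0.60 in the ALDH-negative pair, the lowest value of any Wnt gene there.

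All 5 co-receptors compared lay above 0 in the ALDH-positive pair, as did 7397 of 12151 genes in all, and none was called. RYK was at 0.08, below the median of 0.12 over all genes, and its other probe sets gave -1.18 and -1.71. LRP5 was at 8.79 in ALDH-positive DOX and 7.86 in ALDH-positive control cells, a difference of 0.94, against 8.05 and 8.06 in ALDH-negative DOX and control cells. LGR4, a receptor for R-spondins, which strengthen Wnt signals, differed by 0.78 and 0.18 in the ALDH-positive and ALDH-negative pairs, and ROR1, a receptor for WNT5A, by 0.60 and 0.02. The second probe set of LGR4 went the other way in the ALDH-positive pair (-0.29), as did both further probe sets of LRP6 (-0.29 and -0.34, beside 0.27).

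The 3 Dishevelled genes differed by 0.42 (DVL1), 0.33 (DVL2) and 0.13 (DVL3) in the ALDH-positive pair. AXIN2, a scaffold of the destruction complex and a widely used β-catenin target, was at 8.08 in ALDH-positive DOX and 7.58 in ALDH-positive control cells, against 7.61 and 7.52 in ALDH-negative DOX and control cells. It differed by 0.50 and 0.09, short of 2-fold in both. AXIN1 gave 0.07 in the ALDH-positive pair. APC, a scaffold of the same complex, gave -0.04 on the probe set that stood for it and -0.57, 0.78 and 0.28 on others above 6, so that its probe sets did not go the same way.

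Among the feedback regulators, RNF43, a ubiquitin ligase that removes Frizzled receptors, was at 8.26 in ALDH-positive DOX and 7.42 in ALDH-positive control cells, against 8.04 and 8.15 in ALDH-negative DOX and control cells. The ALDH-positive control array was the low one, and the DOX differences were 0.84 and -0.10. ZNRF3, a ligase of the same kind, was at -0.48 in the ALDH-positive pair, and NKD1, an inhibitor that binds Dishevelled, at -0.36. TCF7L2, the T cell factor measured on 7 probe sets, gave 0.12 on the probe set that stood for it and between -1.0 and 1.0 on the others.

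The probe sets of a gene often parted in the ALDH-positive DOX pair. Of 66 Wnt probe sets compared there, 1 was called higher and 7 lower, in 5 genes, against 9.06% of all probe sets called in either direction. In the ALDH-negative pair 0 of 67 were called, against 0.28%. Between the fractions, 9 of 68 were called in DOX-treated cells, against 18.7% of all probe sets, and 7 of 67 in control cells, against 11.1%.

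CTNNB1 showed the widest gap between its probe sets. Its brightest probe set, 201533_at, differed by -0.30 in the ALDH-positive pair and 223679_at by 1.12, with 8.87 in ALDH-positive DOX and 7.75 in ALDH-positive control cells. The probe set 1554411_at was at 3.82 in ALDH-positive DOX and 8.37 in ALDH-positive control cells, against 9.29 in ALDH-negative DOX and 9.27 in ALDH-negative control cells. It was at background on the ALDH-positive DOX array only, and the difference of -4.55 became -2.37 with levels under 6 set to 6. The files do not give the part of the transcript that each probe set reads.

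RYK, a Wnt receptor of the tyrosine kinase family, showed a like split. The probe set that stood for it, 202853_s_at, was at 12.05 to 12.23 on all arrays, and differed by 0.08 in the ALDH-positive pair. The probe set 216976_s_at was at 7.37 in ALDH-positive DOX and 9.08 in ALDH-positive control cells (-1.71), against 8.60 and 8.55 in ALDH-negative DOX and control cells, and 214172_x_at differed by -1.18. A second LEF1 probe set, 210948_s_at, was at 5.51 in ALDH-positive DOX and 7.10 in ALDH-positive control cells, a difference of -1.59, or -1.10 with levels under 6 set to 6.

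**Figure D3:**
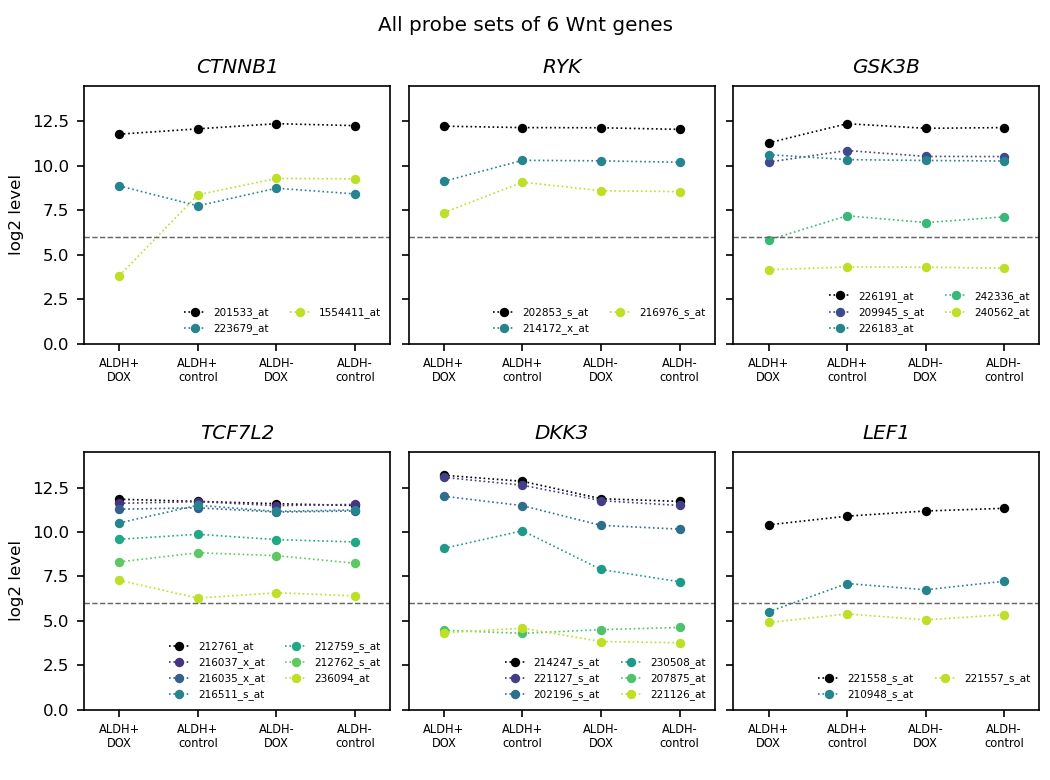
Log2 level (y axis) of every probe set of CTNNB1, RYK, GSK3B, TCF7L2, DKK3 and LEF1 on the 4 arrays (x axis), with 1 line per probe set and the probe set that stands for the gene in black. The dashed line marks a level of 6, and the dotted lines join the arrays for reading only. The CTNNB1 probe set 1554411_at lies at 3.82 in ALDH-positive DOX cells and above 8 on the other arrays, and the 4 DKK3 probe sets above the dashed line lie higher on both ALDH-positive arrays.

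Of 17 Wnt genes with 2 or more probe sets at a level of 6 in the ALDH-positive DOX pair, 5 had no probe set of opposite sign (29.4%), against 51.9% of 6455 genes in all. The probe sets lay 1 or more apart in 9 of the 17 (52.9%), against 24.1% of all genes. In the ALDH-negative pair 8 of 16 had no opposite sign and 0 lay 1 or more apart, against 48.3% and 0.365% of all genes. Between the fractions in control cells, 11 of 17 had no opposite sign (64.7%), against 65% of all genes. The number of probe sets per gene was not matched between the Wnt genes and all genes.

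Further genes of the pathway were taken from 7 lists of 127 genes, of which 84 were tested. In the ALDH term of the limma model 11 rose and 9 fell in ALDH-positive cells, against 13.5% and 9.58% of all genes, with a median of 0.07, against 0.03, and in the DOX term 0 passed. KREMEN1, TNIK, CCN5 and TBX3 passed the ALDH term in every alternative run, and the other genes named below lost it in at least 1. In the ALDH-positive DOX pair 8 were called higher and 2 lower of 84, against 3.47% and 2.3% of all genes. In the ALDH-negative pair 0 of 80 were called, against 0.271% higher and 0.0508% lower.

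Of the extracellular antagonists 2 rose and 0 fell of 3 tested, and of the other receptors 2 rose and 0 fell of 6, against 13.5% of all genes higher and 9.58% lower. APCDD1, a membrane-bound Wnt inhibitor, was at 8.66 in ALDH-positive DOX and 6.72 in ALDH-positive control cells, against 5.09 in ALDH-negative DOX and 5.35 in ALDH-negative control cells, with a mean ALDH difference of 2.46 ± 0.42 (SE, limma adjusted p = 0.00144). It was above background in ALDH-positive cells only, its DOX difference there was 1.94, and its mean ALDH difference was 1.69 with levels under 6 set to 6. KREMEN1, a receptor that takes up LRP6 together with DKK1, was at 8.35 and 8.08 in ALDH-positive DOX and control cells, against 6.99 and 6.70 in ALDH-negative DOX and control cells, a mean of 1.37 ± 0.28 (SE, limma adjusted p = 0.00393). WIF1, a secreted inhibitor that binds Wnt ligands, passed at 1.48 ± 0.29 (SE, limma adjusted p = 0.00318) from levels of 6.26 at most, but with levels under 6 set to 6 it was at 0.13 and did not pass (limma adjusted p = 0.62, against 0.00418 to 0.62 over 8 alternatives). LRP4, a receptor related to LRP5 and LRP6, rose by 0.85 ± 0.27 (SE, limma adjusted p = 0.0367).

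Among cytoplasmic regulators 0 rose and 2 fell of 19 tested, and among nuclear cofactors 2 rose and 1 fell of 16, against 13.5% of all genes higher and 9.58% lower. TNIK, a kinase that activates TCF-bound transcription, was at 6.84 in ALDH-positive DOX and 6.89 in ALDH-positive control cells, against 8.77 and 8.83 in ALDH-negative DOX and control cells, a mean of -1.94 ± 0.27 (SE, limma adjusted p = 0.000403). Its other 2 probe sets at that level went the same way. FRAT2, a GSK3-binding protein that favours β-catenin, differed by -1.12 ± 0.29 (SE, limma adjusted p = 0.0163). Of the nuclear cofactors, the Groucho corepressor TLE2 was at 1.59 ± 0.31 (SE, limma adjusted p = 0.00317), its relative TLE4 was at -0.99 ± 0.28 (limma adjusted p = 0.0232) and the repressor HBP1 was at 1.06 ± 0.24 (limma adjusted p = 0.00763), which was at -0.03 without shared probe sets. TLE2 also differed with DOX in ALDH-positive cells by 1.27, on both of its probe sets (1.27 and 1.19).

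In the planar polarity and calcium branch 2 rose and 2 fell of 22 tested, against 13.5% and 9.58% of all genes. NFATC2, a calcium-dependent transcription factor, was at 8.14 in ALDH-positive DOX and 6.94 in ALDH-positive control cells, against 9.25 and 9.23 in ALDH-negative DOX and control cells, a mean of -1.70 ± 0.31 (SE, limma adjusted p = 0.00243). VANGL1, a core polarity protein, fell (-0.84 ± 0.24, limma adjusted p = 0.0262), and CAMK2D (0.60 ± 0.16, limma adjusted p = 0.0173) and the polarity cadherin CELSR3 (0.70 ± 0.23, limma adjusted p = 0.0475) rose. CELSR3 differed by 1.14 in DOX-treated and 0.26 in control cells. It passed in 3 of 9 alternatives, with limma adjusted p between 0.0227 and 0.17. CAMK2D was at 0.17 with the mean of its probe sets (limma adjusted p = 0.613, against 0.00934 to 0.613 over 9 alternatives).

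Reported β-catenin targets went both ways between the fractions, with 3 up and 4 down of 17 tested, against 13.5% and 9.58% of all genes, and a median of -0.01. CCN5, a matricellular protein, was at 8.75 in ALDH-positive DOX and 7.77 in ALDH-positive control cells, against 5.68 in ALDH-negative DOX and 5.90 in ALDH-negative control cells, a mean of 2.47 ± 0.33 (SE, limma adjusted p = 0.000258). Both ALDH-negative arrays lay below the background mark, and with levels under 6 set to 6 the mean was 2.26. ID2, an inhibitor of helix-loop-helix factors, rose by 1.09 ± 0.28 (limma adjusted p = 0.0151), while the urokinase receptor PLAUR fell by 1.06 ± 0.27 on the log2 scale (limma adjusted p = 0.0149). TBX3, a transcriptional repressor, was at 11.90 and 11.37 in ALDH-positive DOX and control cells, against 12.61 and 12.54 in ALDH-negative DOX and control cells, a mean of -0.94 ± 0.14 (SE, limma adjusted p = 0.000658) that all 5 of its probe sets shared in direction.

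With DOX in ALDH-positive cells, 2 of the 17 targets were called higher, PLAUR (1.17) and ENC1 (1.05), and 1 lower, MYC, against 3.47% and 2.3% of all genes. The second probe set of ENC1 gave 0.21. MYC was at 12.41 in ALDH-positive DOX and 13.54 in ALDH-positive control cells (-1.13). In ALDH-negative cells MYC was at 13.22 in DOX and 13.33 in control cells. PLAUR differed by 1.17, 1.06 and 1.20 on its 3 probe sets in the ALDH-positive pair and by 0.60, 0.33 and 0.31 in the ALDH-negative pair.

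**Figure D4:**
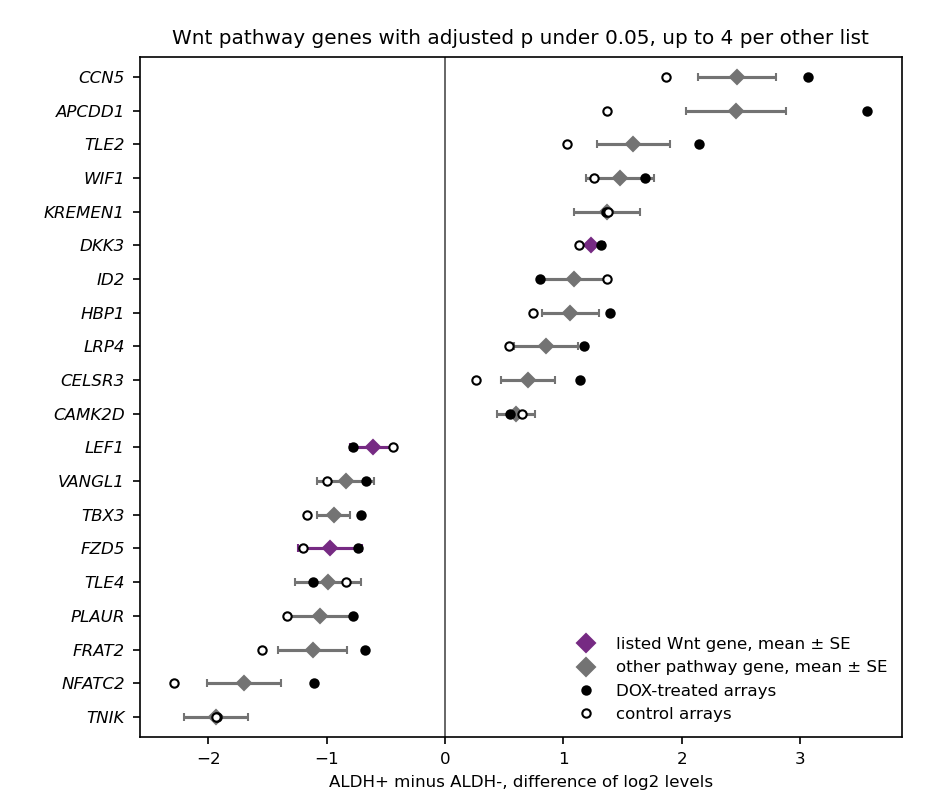
Mean ALDH-positive minus ALDH-negative difference of log2 levels (x axis, diamonds, with the limma SE as bars) of pathway genes with an adjusted p under 0.05 (y axis), purple for the 3 listed Wnt genes and grey for up to 4 genes of each further list. Filled and open circles are the differences in the DOX-treated and the control arrays, 1 pair of arrays each. The circles of each gene lie on the same side of 0, with CCN5, at background in ALDH-negative cells, at the top (2.47) and TNIK at the bottom (-1.94).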

How the data were processed

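RNA of 4 samples was hybridised to Affymetrix arrays, 1 array per group. The authors deposited log2 levels per probe set from RMA, per the submitters' processing notes; RMA subtracts background, makes the arrays' distributions equal and combines the probes of a set. The RMA version was not given in the sources used here. No further scaling was applied. Of 54675 probe sets, an annotation dated 2016 gave 41097 1 gene, 1801 several and 11777 none. Differences between 2 arrays were called by size, without p-values. The additive model (ALDH fraction and DOX) used limma 3.58.1 with trend in R 4.3.3, with 1 residual and 11.6 prior degrees of freedom, two-sided p-values and Benjamini-Hochberg adjustment over 12365 genes. It was also run on simulated data with noise of the size of the ALDH-negative pair. The wider scatter of the ALDH-positive pair was not simulated, so that run gives no error rate for these arrays. Promoters and figures were handled in Python 3.11.15 with numpy 2.4.6, pandas 2.3.3 and matplotlib 3.10.9.

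The members, lists and thresholds were chosen with earlier results of these data known. All members were eligible for naming, with values per array for those called by size or by the model. Members whose probe sets parted were added. From each further list up to 4 called genes of largest difference per comparison were eligible. Alternatives covered scaling, the filter on level, the probe set that stands for a gene, the size of a call and the variance model. With 4 arrays, their number limits how precise any value can be.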

Additional observations from a re-analysis of the deposited data

Results flagged for a closer look

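In 6 Wnt probe sets the DOX difference had opposite signs in the fractions and the fractions' differences lay 1 or more apart. The share of all probe sets that meet this rule is not given here, so the count cannot be read as particular to the Wnt genes. Of all probe sets compared, 9.06% were called for DOX in the ALDH-positive pair and 0.28% in the ALDH-negative pair. With 1 array a group, the difference between the fractions was not tested. FZD6 had -1.23 in the ALDH-positive pair and 0.05 in the ALDH-negative pair, a gap of -1.29. RYK gave -1.26 on 214172_x_at (-1.18 and 0.09) and -1.77 on 216976_s_at (-1.71 and 0.06), while the probe set that stood for the gene gave 0.08 and 0.09. APC gave -1.10 on 216933_x_at (-0.99 and 0.11), but both levels of its ALDH-positive pair, 4.99 and 5.98, lay below the background mark of 6, and the difference there was 0 with levels under 6 set to 6. CTNNB1 gave -4.57 on 1554411_at (-4.55 and 0.02). DKK3 gave -1.68 on 230508_at (-0.99 and 0.69), while its brightest probe set gave 0.35 and 0.14.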

How the results depend on the processing

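Of the counts of Wnt genes, those called by size in the DOX comparisons, the ALDH comparison of control cells and the difference between the DOX differences moved by over 1.5 times only with a size of 1.5-fold in place of 2-fold. At that size 8 genes were called for DOX in ALDH-positive cells, 1 in ALDH-negative cells, 6 between the fractions in control cells and 6 for the difference between the DOX differences. The share of all genes at 1.5-fold is not given here, so no count at that size can be read as particular to the Wnt genes. In DOX-treated cells the ALDH count was 10 at that size and 2 after cyclic loess, where FZD6 reached -1.0. With the mean of probe sets that count was 1 again, but with 0 higher and 1 lower, since DKK3 was at 0.99, and the limma ALDH count was 3, with CTNNB1 and DKK1 in place of FZD5 and LEF1. The ALDH count of the limma model was 5 with each array centred on its median, with CTNNB1 and DKK1 added, and 1, DKK3, without shared probe sets (names ending in _x_at or _s_at), where LEF1 had no probe set and FZD5 none at a level of 6. That count was 2 in a fit over all probe sets, with CTNNB1 and DKK3. Without a filter on level it was also 2, with DKK3 and TCF7L1, which stayed below 6 on all arrays. The DOX count of the model stayed at 0 in all alternatives run. Without shared probe sets the difference between the DOX differences of DKK3 was -1.68, against 0.20, and the ALDH difference of HBP1 was -0.03. Of 814 values of named genes and probe sets under the alternatives, 750 kept their direction and side of the threshold, 54 lost the call, 5 gained it and 5 changed sign, of which 2 were called under 1 of the settings. Part of the 750 could not have changed, since another filter on level leaves the difference of 2 arrays as it is. The same holds for the mean of probe sets in genes with 1 probe set, and for the floor of 6 in genes above it. The median DOX difference of the Wnt genes in ALDH-positive cells was 0.05 with the mean of probe sets and 0.33 without shared ones, against 0.18. A model without the ALDH-positive DOX array has no residual degree of freedom, so that the control pair gives its only ALDH difference. No block by replicate number could be added because each group holds 1 array, and the additive model already sets the fractions against each other within DOX and control.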

Other observations

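FZD8, a Frizzled receptor that has been reported as a target of miR-100 in breast cancer cells, had no probe set of its own, but 3 probe sets are listed under both MIR4683 and FZD8, and their signal cannot be given to either gene. The probe set 227405_s_at was at 6.45 in ALDH-positive DOX and 6.61 in ALDH-positive control cells, against 8.58 in ALDH-negative DOX and 8.65 in ALDH-negative control cells. The ALDH differences were -2.13 in DOX-treated and -2.04 in control cells, larger in size than those of the brightest probe set of any measured Wnt gene, and the DOX differences were -0.17 in the ALDH-positive pair and -0.07 in the ALDH-negative pair. The probe set 224325_at was at 4.75 and 4.63 in ALDH-positive DOX and control cells, against 7.71 and 7.58 in ALDH-negative DOX and control cells, so that it was at background in ALDH-positive cells. With levels under 6 set to 6 its ALDH differences were -1.71 in DOX-treated and -1.58 in control cells. The third, 216587_s_at, lay under 6 on all arrays.

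Of the 3 probe sets listed under both LOC101929777 and WNT3, 229103_at was at 8.79 and 8.73 in ALDH-positive DOX and control cells, against 8.35 and 8.57 in ALDH-negative DOX and control cells. None of the 3 reached 2-fold in any comparison. Of 14 further Wnt and R-spondin ligands with a probe set, 1 reached a level of 6 on any array.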
